A study of Mus musculus with 20 samples.

Results

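Gene sets of cholesterol synthesis, of its SREBP regulators and of lipid metabolism were examined in mouse myeloid cells taken from melanoma-bearing and healthy mice, and in the melanoma lines themselves. The members were all listed gene sets with STEROL, STEROID, SREBP, SREBF, LIPID or FATTY_ACID in their name. The rule found 45 sets of 3883 listed in each myeloid comparison and of 3871 listed in the cell line comparison. Of these, 38 were analysed together, and 7 whose names end in _DN, which hold genes that fell in the experiment that defined them, were kept apart. The 38 sets comprised 7 sterol and SREBP sets, 4 fatty acid sets, 19 membrane lipid sets, 4 other steroid sets and 4 other lipid sets. Member sets held 15 to 175 genes.

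The study sequenced RNA from 20 libraries of C57BL/6 material. Myeloid cells were prepared from adult mice by depletion of CD3e-positive cells. This is meant to remove T cells and leaves other non-T cells in the preparation. Bone marrow gave 3 libraries from B16F10-bearing, 2 from YUMM3.3-bearing and 3 from healthy mice, and spleen gave 2 libraries in each of these conditions. YUMM3.3 and B16F10 cultures, grown for 4 days, gave 3 libraries each. The B16F10 line was selected for its spread to the lung, and YUMM3.3 was derived from the melanoma of a genetically engineered mouse. Libraries are not tied to single animals in the labels, so they may be technical replicates.

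The values come from the authors' deposited tables of gene set enrichment, which cover 7 comparisons. The normalised enrichment score (NES) says how far the genes of a set lie toward one end of the list of all genes ranked by their difference between 2 groups. It is signed here so that a positive NES means higher in the first-named group. The NES is not a fold change. A set was called where its deposited false discovery rate q was below 0.05. Values per library, the member genes and the depth of the libraries were not analysed here. No replicate error could therefore be given, and the marker genes of the cells could not be checked. The smallest nonzero nominal p deposited was 0.00103, below the 0.05, 0.1 and 0.167 that relabelling of 3 against 3, 3 against 2 and 2 against 2 libraries can give. The deposited p and q values therefore do not measure the spread between animals.

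SREBP transcription factors, encoded by Srebf1 and Srebf2, are held in the endoplasmic reticulum while membrane sterol is plentiful. When sterol falls, SCAP escorts them to the Golgi, where they are cleaved, and the released fragment enters the nucleus. There it switches on the enzymes of cholesterol synthesis, the LDL receptor and, mainly through SREBP-1, the enzymes of fatty acid synthesis. In macrophages and other myeloid cells, this pathway and the opposing export of cholesterol by ABC transporters set the sterol content of membranes and are linked to inflammatory activation.

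In spleen, the SREBP and cholesterol synthesis sets fell in myeloid cells of B16F10-bearing mice and rose in those of YUMM3.3-bearing mice, each against healthy mice. In the authors' deposited tables, 3 of the 4 sets that hold SREBP targets or cholesterol synthesis enzymes fell in B16F10-bearing against healthy spleen, where 1.60% of all listed sets were called lower. With the YUMM3.3 tumour, 3 of the 4 rose against healthy spleen, where 15.6% of all listed sets were called higher. In the direct comparison of B16F10-bearing with YUMM3.3-bearing spleen, 4 of the 4 were lower in B16F10-bearing spleen, where 1.47% of all listed sets were called lower. The median NES of these 4 sets was -2.13, 1.75 and -2.31 in the 3 comparisons, in that order, while the median over all listed sets was 1.09, -0.69 and 1.04. Listed sets were split almost evenly in sign in YUMM3.3-bearing against healthy spleen, with 1876 above 0 and 2007 below. The 4 sets were singled out of the 7 by what their names say and with their values known, so their counts are descriptions. The 4 sets may share genes and should not be read as 4 separate observations. The 3 spleen comparisons share libraries and are not separate evidence.

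**Figure D1:**
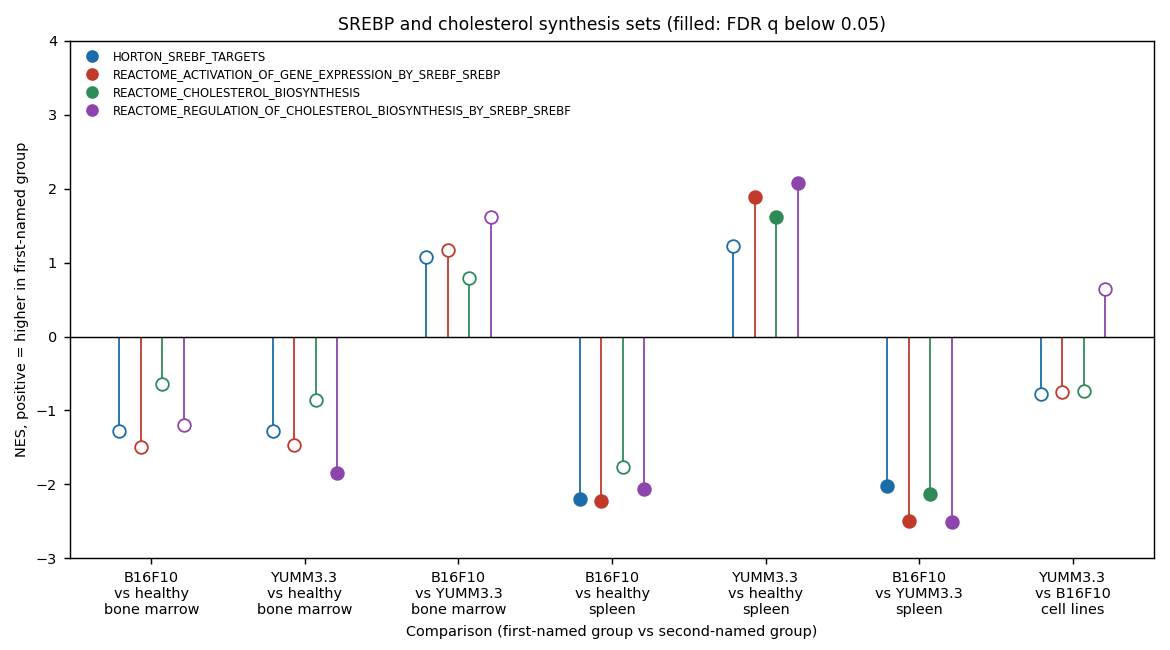
Deposited NES (y axis, no unit) of the 4 SREBP and cholesterol synthesis sets in the 7 comparisons (x axis), positive where the set is higher in the first-named group. Points are single deposited values, filled where the false discovery rate q is below 0.05. In spleen all 4 points lie below 0 for B16F10-bearing against healthy, above 0 for YUMM3.3-bearing against healthy, and between -2.51 and -2.03 for B16F10-bearing against YUMM3.3-bearing.

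REACTOME_REGULATION_OF_CHOLESTEROL_BIOSYNTHESIS_BY_SREBP_SREBF, with 51 genes, covers the transport and cleavage of SREBP together with its target genes. Its deposited NES in spleen was -2.06 (q = 0.00471) in B16F10-bearing against healthy mice and 2.07 (q = 0.000206) in YUMM3.3-bearing against healthy mice. Between the tumours its NES was -2.51, with q and the family-wise error rate (the deposited FWER p) both listed as 0. That NES placed it 1st of the 1057 sets lower in B16F10-bearing than in YUMM3.3-bearing spleen.

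REACTOME_ACTIVATION_OF_GENE_EXPRESSION_BY_SREBF_SREBP holds 39 genes, the transcriptional targets of SREBP with their co-activators. The deposited table gave it an NES of -2.22 in B16F10-bearing against healthy spleen (q = 0.000286, family-wise error rate 0.003). For YUMM3.3-bearing against healthy spleen the NES was 1.89 (q = 0.00257, family-wise error rate 0.667). Between B16F10-bearing and YUMM3.3-bearing spleen the NES was -2.50, again with q and family-wise error rate listed as 0, and the set stood 2nd of 1057. The pair of Reactome SREBP sets overlap: in 4 of the 7 comparisons, the 3 of spleen among them, their running scores peaked at the same gene. They should be read as close to 1 observation.

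HORTON_SREBF_TARGETS, 22 genes identified in livers of mice with raised or lost SREBP activity, peaked at the same gene as the Reactome regulation set in 0 of 7 comparisons. A different peak does not show that sets hold different genes, and shared members were not analysed here. The liver list had a deposited NES of -2.20 in B16F10-bearing against healthy spleen (q = 0.000676, family-wise error rate 0.009). It was 1.22 in YUMM3.3-bearing against healthy spleen, where q was 0.306 and the set was not called. The direct comparison of B16F10-bearing with YUMM3.3-bearing spleen gave -2.03 (q = 0.00545, family-wise error rate 0.133). The liver-derived target list thus fell with the B16F10 tumour and differed between the tumours, without a call in YUMM3.3-bearing spleen.

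REACTOME_CHOLESTEROL_BIOSYNTHESIS contains the 20 listed enzymes and partners of the pathway that leads from acetyl-CoA through mevalonate and squalene to cholesterol. It peaked at the same gene as each of the Reactome SREBP sets in 1 of 7 comparisons. In the authors' deposited tables its NES was -1.76 in B16F10-bearing against healthy spleen, where it missed the threshold (q = 0.0615). The set rose in YUMM3.3-bearing against healthy spleen, with an NES of 1.62 (q = 0.0338). It was lower in B16F10-bearing than in YUMM3.3-bearing spleen, with an NES of -2.13 (q = 0.00178, family-wise error rate 0.026). Because q is computed separately in each direction, the NES needed for a call differed: the smallest size of a called NES was 1.79 among sets lower in B16F10-bearing against healthy spleen, and 1.57 among sets higher in YUMM3.3-bearing against healthy spleen.

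The leading edge of a set is the part of it that lies before the peak of the running score and carries the enrichment. For the 20-gene cholesterol synthesis set it held 11 genes in B16F10-bearing against healthy spleen and 10 in YUMM3.3-bearing against healthy spleen, and 13 in the comparison of the tumours. For the SREBP target list from liver it held 16, 7 and 14 of the 22 genes in the same 3 comparisons. For the 39-gene activation set the deposited tables gave 20, 24 and 23 genes. About 50% or more of the members therefore contributed in each of these cases other than the liver list in YUMM3.3-bearing spleen. Between the tumours the peak came earliest, after 11% of the ranked list for the liver target list, 12% for both Reactome SREBP sets and 16% for cholesterol synthesis. Both Reactome SREBP sets peaked later in YUMM3.3-bearing against healthy spleen, after 24% of the list. Which genes made up each leading edge was not analysed here.

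**Figure D2:**
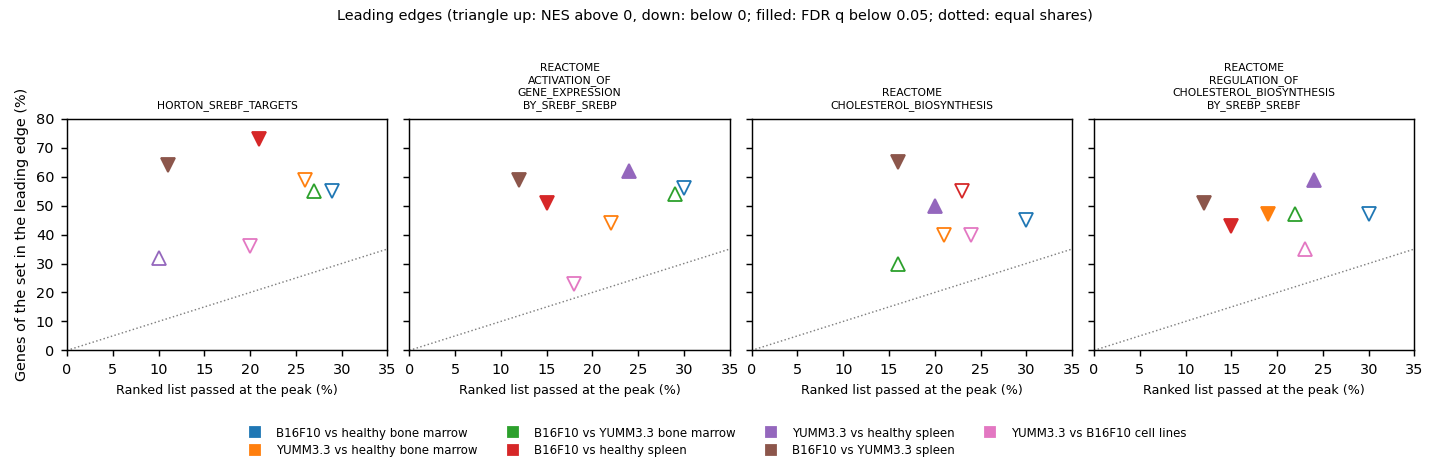
Share of each set's genes in the leading edge (y axis, percent) against the share of the ranked gene list passed at the peak (x axis, percent), 1 panel for each of the 4 SREBP and cholesterol synthesis sets and 1 triangle per comparison. Triangles point up for NES above 0 and down for NES below 0 and are filled where q is below 0.05. The B16F10-bearing against YUMM3.3-bearing spleen points lie in the upper left of each panel, at 51% to 65% of the genes within 11% to 16% of the list.

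In bone marrow the same 4 sets gave few calls. The Reactome regulation set fell in YUMM3.3-bearing against healthy bone marrow (NES -1.84, q = 0.0180), and the other 3 were not called, at NES between -1.46 and -0.86. In B16F10-bearing against healthy bone marrow 0 of the 4 passed the deposited q threshold and 1 had a nominal p below 0.05, with NES between -1.49 and -0.64. In B16F10-bearing against YUMM3.3-bearing bone marrow 0 of the 4 passed and 1 had a nominal p below 0.05, at NES between 0.80 and 1.62. The NES of all 4 was thus below 0 for both tumours against healthy marrow, whereas in spleen the tumours had opposite signs. The difference between marrow and spleen was not tested.

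In YUMM3.3 against B16F10 cells in culture, 0 of the 4 sets passed the deposited q threshold and 0 had a nominal p below 0.05. Their NES were -0.78 for the liver target list, -0.74 for the activation set, -0.73 for cholesterol synthesis and 0.65 for the regulation set. The lines were cultured without host cells, and no RNA from the tumours themselves was analysed here.

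Other groups of sets were counted beside the spleen result, and their part in it was not tested. Of all listed sets, 16.6% were called higher and 1.60% lower in B16F10-bearing against healthy spleen. These backgrounds were 15.6% and 5.31% in YUMM3.3-bearing against healthy spleen. Between B16F10-bearing and YUMM3.3-bearing spleen they were 9.63% and 1.47%. Counts near these shares say nothing about a group of sets. Of 31 cell division sets, 23 were called higher in B16F10-bearing and 28 in YUMM3.3-bearing spleen, each against healthy spleen. Between B16F10-bearing and YUMM3.3-bearing spleen 0 of the 31 were called in either direction at the deposited q, with a median NES of 0.93, while 5 were higher and 1 lower at a nominal p below 0.05. Any link between the cell division sets and the SREBP sets was not tested. Of 24 B cell sets, 2 rose and 3 fell in B16F10-bearing and 3 rose and 1 fell in YUMM3.3-bearing against healthy spleen. The 3 that fell in B16F10-bearing against healthy spleen were also the 3 lower in B16F10-bearing than in YUMM3.3-bearing spleen. KEGG_B_CELL_RECEPTOR_SIGNALING_PATHWAY was at -2.25 and -1.85 in these comparisons and MORI_MATURE_B_LYMPHOCYTE_UP at -1.96 and -1.82. The Reactome set for antigen activation of the B cell receptor was at -2.08 and -2.06. The part of the B cell sets in the SREBP values was not tested. Of 11 platelet sets, 1 rose in B16F10-bearing spleen, 1 rose and 5 fell in YUMM3.3-bearing spleen, and 4 were higher in B16F10-bearing than in YUMM3.3-bearing spleen. Of 12 erythroid sets, 3 rose in B16F10-bearing spleen, 3 rose and 1 fell in YUMM3.3-bearing spleen, and 2 were higher in B16F10-bearing than in YUMM3.3-bearing spleen. Of 7 T cell sets, 2 rose and 2 fell in B16F10-bearing spleen, 2 rose in YUMM3.3-bearing spleen, and 0 were called between the tumours, where 3 were higher and 2 lower at a nominal p below 0.05. Sets of digestive enzymes had the signs of the SREBP sets in all 3 spleen comparisons. REACTOME_DIGESTION, with 18 genes, had a deposited NES of -2.53 (q listed as 0) in B16F10-bearing against healthy, 1.55 (q = 0.0533) in YUMM3.3-bearing against healthy and -2.24 (q = 0.000491) in B16F10-bearing against YUMM3.3-bearing spleen. REACTOME_DIGESTION_AND_ABSORPTION, with 23 genes, was at -2.56 (q listed as 0), 1.43 (q = 0.113) and -2.32 (q = 0.000540) in the same order. Their part in the SREBP values was not tested. A change in the mix of cells and a change of expression within a cell cannot be told apart in these preparations.

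The other 3 sterol sets received 3 calls in all. REACTOME_ENDOGENOUS_STEROLS, cytochrome P450 enzymes that act on sterols and steroids, was called in 0 of 7 comparisons, with NES between -1.28 and 0.86. The bile acid set for the route through 7alpha-hydroxycholesterol, the main hepatic path of cholesterol breakdown, fell in YUMM3.3-bearing against healthy spleen (NES -1.79, q = 0.0315). WUNDER_INFLAMMATORY_RESPONSE_AND_CHOLESTEROL_UP, placed here by its name, rose in bone marrow of mice with either tumour, with a deposited NES of 1.87 (q = 0.00625) in B16F10-bearing and 1.69 (q = 0.0292) in YUMM3.3-bearing against healthy mice. It was not called between the tumours in marrow, at -1.52 (q = 0.0919).

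In the authors' deposited tables, 17 of the 38 sets were called in at least 1 comparison and 21 in none, with 32 calls in 266 pairs of a set and a comparison (12.0%). Over all listed sets 17.3% of such pairs were called, so lipid sets as a whole were not called more often than listed sets in general. A family-wise error rate below 0.05 was listed for 5 of the 32 calls, and all 5 were SREBP or cholesterol synthesis sets in spleen.

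**Figure D3:**
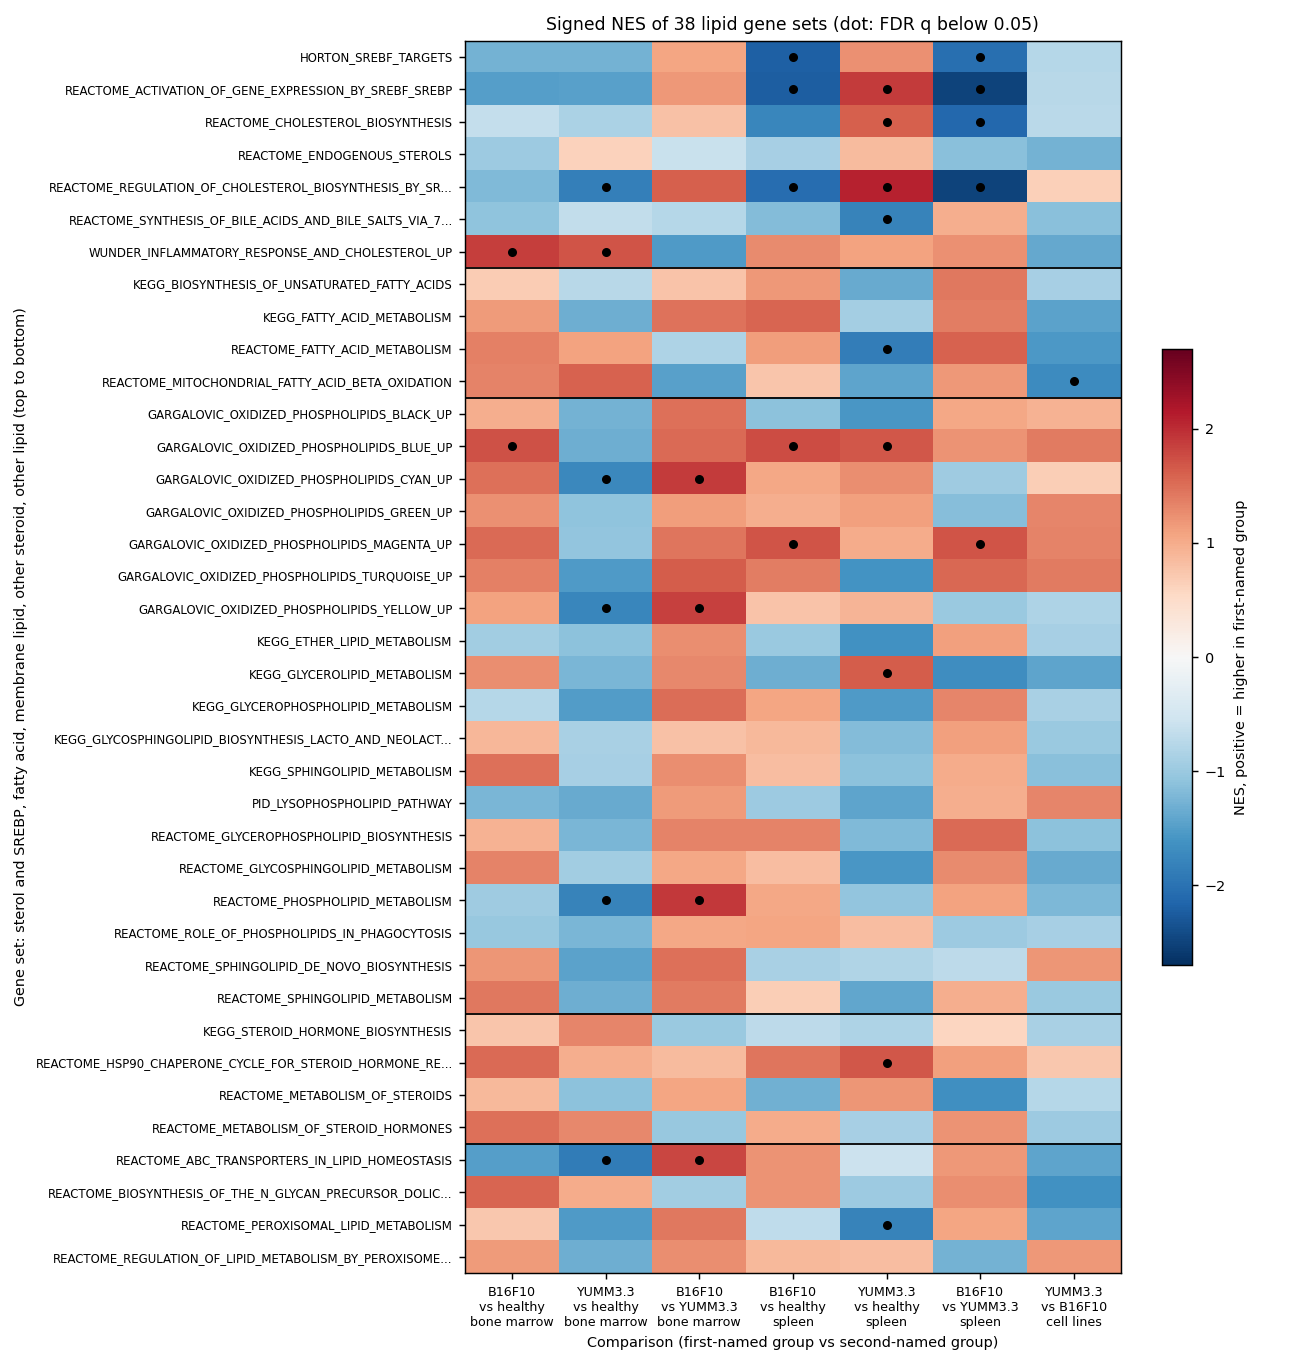
Deposited NES (colour, no unit) of the 38 lipid sets (rows, divided by lines into sterol and SREBP, fatty acid, membrane lipid, other steroid and other lipid sets) in the 7 comparisons (columns), red where higher in the first-named group and blue where lower. A dot marks q below 0.05. The 19 membrane lipid rows are all blue in YUMM3.3-bearing against healthy bone marrow and all red in B16F10-bearing against YUMM3.3-bearing bone marrow.

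In B16F10-bearing against healthy spleen, 2 of the 38 sets rose, where 16.6% of all listed sets were called higher, and 3 fell, where 1.60% of all listed sets were called lower. With the YUMM3.3 tumour, 6 of the 38 rose against healthy spleen, with a background of 15.6%, and 3 fell, with a background of 5.31%. In B16F10-bearing against YUMM3.3-bearing spleen, 1 was higher against a background of 9.63%, and 4 were lower against 1.47%. All of the lower calls in B16F10-bearing spleen, against healthy and against YUMM3.3-bearing spleen, were SREBP or cholesterol synthesis sets. The 6 sets that rose in YUMM3.3-bearing spleen were a share near the background, so their number says nothing about lipid sets as a group.

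In B16F10-bearing against healthy bone marrow, 2 of the 38 rose against a background of 20.1%, and 0 fell at the deposited q against 5.0%, with 1 at a nominal p below 0.05. In YUMM3.3-bearing against healthy bone marrow, 1 rose against a background of 9.68%, and 5 fell against 6.52%. In B16F10-bearing against YUMM3.3-bearing bone marrow, 4 were higher against a background of 8.09%, and 0 were lower at the deposited q against 8.40%, with 2 at a nominal p below 0.05. The 4 sets called higher between the tumours in marrow were all among the 5 that fell in YUMM3.3-bearing against healthy marrow, and these comparisons share the YUMM3.3-bearing libraries. In YUMM3.3 against B16F10 cells, 0 were higher at the deposited q against a background of 11.8%, with 2 at a nominal p below 0.05, and 1 was lower against 1.47%.

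**Figure D4:**
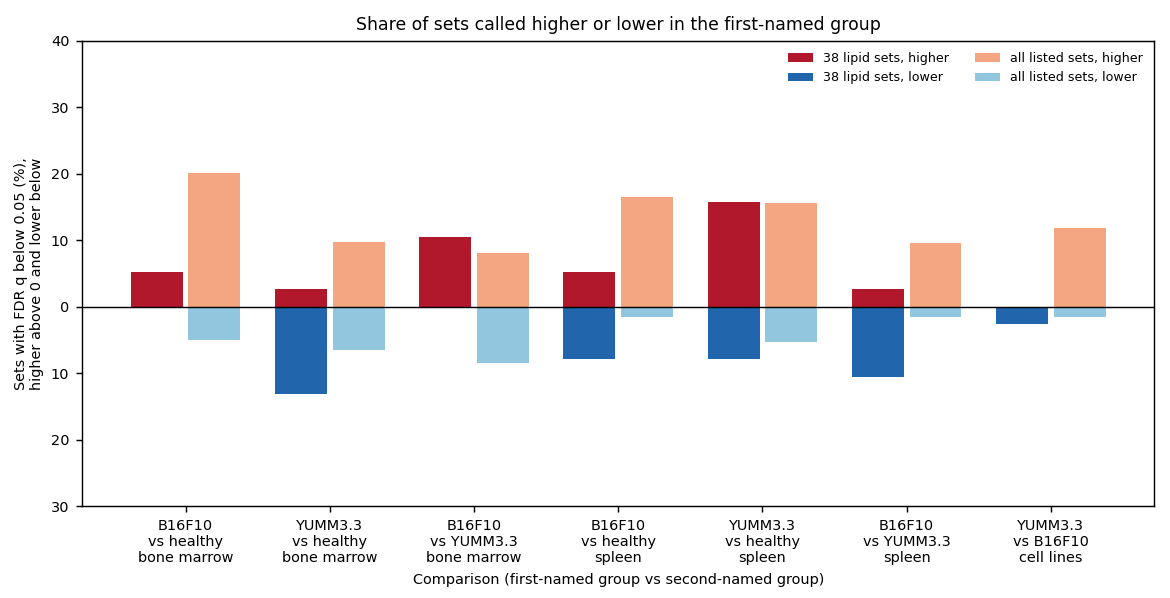
Share of sets with a deposited q below 0.05 (y axis, percent, bars start at 0) in each comparison (x axis), higher in the first-named group above 0 and lower below it, for the 38 lipid sets in dark colours and all listed sets in light colours. Lipid sets lower in B16F10-bearing spleen number 3 and 4 of 38, where 1.60% and 1.47% of all sets were lower.

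The fatty acid sets received few calls. REACTOME_FATTY_ACID_METABOLISM, 151 genes in the myeloid lists of synthesis, elongation, oxidation and signalling lipids, fell in YUMM3.3-bearing against healthy spleen (NES -1.87, q = 0.0183). Its deposited NES was 1.12 in B16F10-bearing against healthy spleen (q = 0.463) and 1.59 in B16F10-bearing against YUMM3.3-bearing spleen (q = 0.0804), neither called. All 4 fatty acid sets had an NES below 0 in YUMM3.3-bearing against healthy spleen and above 0 in both other spleen comparisons. Listed sets in general leaned above 0 in both of those other comparisons. Of 3883 listed sets, 2900 were above 0 in B16F10-bearing against healthy and 2826 in B16F10-bearing against YUMM3.3-bearing spleen. In YUMM3.3-bearing against healthy spleen they were split almost evenly, with 1876 above 0 and 2007 below. The median NES of listed sets was 1.09, -0.69 and 1.04 in B16F10-bearing against healthy, YUMM3.3-bearing against healthy and B16F10-bearing against YUMM3.3-bearing spleen. The fatty acid sets had medians of 1.15, -1.40 and 1.40. Their signs above 0 are therefore no result about fatty acid metabolism. Their signs below 0 in YUMM3.3-bearing spleen rest on 4 sets, of which 1 was called, and were not tested as a group.

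Mitochondrial beta-oxidation, the 32 genes that shorten fatty acids for energy, was the 1 lipid set called in the cell lines. It was lower in YUMM3.3 than in B16F10 cells, with a deposited NES of -1.70, and its q of 0.0498 lay just inside the threshold. The other fatty acid sets were at -1.55, -1.44 and -0.89 in the lines, all uncalled. In bone marrow the beta-oxidation set reached an NES of 1.59 in YUMM3.3-bearing against healthy mice and was not called (q = 0.0597). KEGG_FATTY_ACID_METABOLISM, which lists mainly oxidation enzymes, was called in none of the comparisons and came nearest in B16F10-bearing against healthy spleen, at 1.56 (q = 0.0709). The unsaturated fatty acid set, with 17 desaturases, elongases and related enzymes, lay between -1.36 and 1.42 and was not called.

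Membrane lipid sets leaned lower in YUMM3.3-bearing bone marrow in 2 comparisons, with few calls. All 19 had a deposited NES below 0 in YUMM3.3-bearing against healthy marrow. All 19 were above 0 in B16F10-bearing against YUMM3.3-bearing marrow, which also means lower in YUMM3.3-bearing marrow. These comparisons share the YUMM3.3-bearing libraries and are not separate evidence. Some of the sets peaked at the same gene, the KEGG and Reactome sphingolipid metabolism sets in YUMM3.3-bearing against healthy marrow among them. The 19 sets are therefore not separate observations. The median NES of the 19 was -1.27 and 1.41 in these comparisons, while the median over all listed sets was 0.74 and 0.72. Those background medians are not a lean, because listed sets were split almost evenly in sign. In YUMM3.3-bearing against healthy marrow 2060 were above 0 and 1823 below. In B16F10-bearing against YUMM3.3-bearing marrow 2007 were above 0 and 1876 below. Called were 3 of 19 in each, where 6.52% of all listed sets were lower in YUMM3.3-bearing against healthy marrow and 8.09% were higher in B16F10-bearing against YUMM3.3-bearing marrow. Of these calls 2 in each comparison were oxidised phospholipid response sets, and without those 1 of 12 was called in each, a share near the background. In B16F10-bearing against healthy marrow, 14 of the 19 were above 0 and 1 was called higher, where 20.1% of all listed sets were.

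REACTOME_PHOSPHOLIPID_METABOLISM, 175 genes that make and remodel glycerophospholipids and phosphoinositides, was the largest of these sets. It fell in YUMM3.3-bearing against healthy marrow, with an NES of -1.81 (q = 0.0226). It was higher in B16F10-bearing than in YUMM3.3-bearing marrow, at 1.91 (q = 0.00970) in the deposited table, with 68 genes in the leading edge. Its NES was -0.97 in B16F10-bearing against healthy marrow (q = 0.651), and in the 3 spleen comparisons it lay between -1.07 and 1.08. The set was thus called in the 2 marrow comparisons that include YUMM3.3-bearing libraries, and marrow was not tested against spleen. Of the 31 cell division sets, 4 rose and 7 fell in YUMM3.3-bearing against healthy marrow, with backgrounds of 9.68% and 6.52%. Of the same 31, 16 were higher and 1 lower in B16F10-bearing than in YUMM3.3-bearing marrow, with backgrounds of 8.09% and 8.40%. Their part in the membrane lipid values was not tested.

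REACTOME_ABC_TRANSPORTERS_IN_LIPID_HOMEOSTASIS, 17 genes for pumps that move cholesterol, phospholipids and other lipids across membranes, gave calls in the same comparisons. Its deposited NES was -1.89 in YUMM3.3-bearing against healthy marrow (q = 0.0135) and 1.80 in B16F10-bearing against YUMM3.3-bearing marrow (q = 0.0203), with 10 of the 17 genes in each leading edge. It was at -1.49 and not called in B16F10-bearing against healthy marrow (q = 0.129). In spleen, where the SREBP sets were called, the transporter set was at 1.21, -0.57 and 1.16 for B16F10-bearing against healthy, YUMM3.3-bearing against healthy and B16F10-bearing against YUMM3.3-bearing mice, and none of these was called.

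KEGG_GLYCEROLIPID_METABOLISM, which covers triglyceride synthesis and breakdown and includes digestive lipases, was the 1 other membrane lipid set with a call outside the oxidised phospholipid sets. It rose in YUMM3.3-bearing against healthy spleen (NES 1.63, q = 0.0296), carried by 6 of its genes that lay within the first 332 of the ranked list. It was at -1.31 in B16F10-bearing against healthy spleen (q = 0.329), with 4 genes near the opposite end. Between B16F10-bearing and YUMM3.3-bearing spleen it was at -1.68 (q = 0.0956), with 5 genes. The leading edges of this set thus held few genes, near the very end of the ranked list.

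The digestive enzyme sets given above had the same signs in spleen, and their part in the glycerolipid values was not tested. The remaining 10 sets of ether lipid, glycerophospholipid, sphingolipid, glycosphingolipid, lysophospholipid and phagocytosis lipids were called in none of the 7 comparisons. Among them the ether lipid set came nearest, at -1.62 in YUMM3.3-bearing against healthy spleen (q = 0.0685).

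The remaining 7 sets of the membrane lipid group hold genes that rose in human aortic endothelial cells treated with oxidised phospholipids, split by the original study into co-expression modules named by colour. They are defined by a response to oxidised phospholipids and not by a lipid pathway, and their member genes were not analysed here. BLUE_UP, with 97 genes, rose in B16F10-bearing against healthy marrow (NES 1.73, q = 0.0191), in B16F10-bearing against healthy spleen (1.75, q = 0.0149) and in YUMM3.3-bearing against healthy spleen (1.67, q = 0.0225). Its deposited NES was -1.32 in YUMM3.3-bearing against healthy marrow (q = 0.212).

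CYAN_UP and YELLOW_UP, with 15 and 23 genes, fell in YUMM3.3-bearing against healthy marrow, at NES -1.75 (q = 0.0308) and -1.76 (q = 0.0293). Both were higher in B16F10-bearing than in YUMM3.3-bearing marrow, at 1.89 (q = 0.0112) and 1.85 (q = 0.0148). MAGENTA_UP, with 21 genes, rose in B16F10-bearing against healthy spleen (1.69, q = 0.0279) and was higher in B16F10-bearing than in YUMM3.3-bearing spleen (1.69, q = 0.0431). TURQUOISE_UP was called nowhere in the deposited tables and came nearest in B16F10-bearing against YUMM3.3-bearing marrow, at 1.64 (q = 0.0525). BLACK_UP and GREEN_UP were called nowhere. In bone marrow the deposited NES of all 7 modules was above 0 in B16F10-bearing against healthy, below 0 in YUMM3.3-bearing against healthy and above 0 in B16F10-bearing against YUMM3.3-bearing mice. Of the 7 sets of genes that fell on treatment, 6 were below 0 in YUMM3.3-bearing against healthy marrow (median NES -1.40). In B16F10-bearing against YUMM3.3-bearing marrow 6 of them were above 0 (median 1.21). Sets of genes that rose and that fell on treatment thus mostly shared their signs there. In B16F10-bearing against healthy marrow 6 of the 7 were below 0 (median -1.28). In spleen the signs of the 7 modules of genes that rose on treatment were mixed in each comparison.

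**Figure D5:**
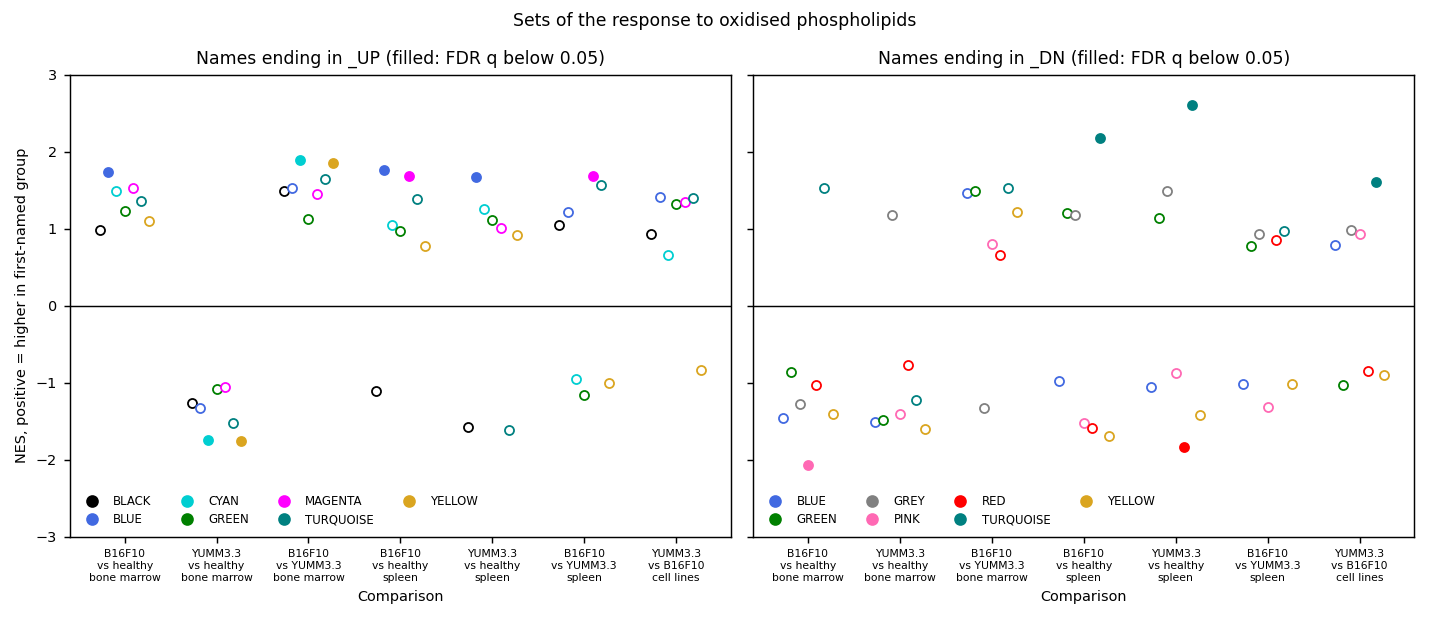
Deposited NES (y axis, no unit) of the oxidised phospholipid response sets in the 7 comparisons (x axis), with the 7 sets of genes that rose on treatment in the left panel and the 7 of genes that fell in the right panel. Each point is 1 module in its colour, filled where q is below 0.05. TURQUOISE_DN stands highest in both tumours against healthy spleen, at 2.17 for B16F10-bearing and 2.60 for YUMM3.3-bearing mice.

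The 7 sets whose names end in _DN were all of this kind, and they received 5 calls over the 7 comparisons. Over all listed sets 17.3% of pairs of a set and a comparison were called. The _DN sets were thus not called more often than listed sets in general. TURQUOISE_DN, 44 genes that fell in the treated endothelial cells, rose in B16F10-bearing against healthy spleen (NES 2.17, q = 1.69e-05, family-wise error rate 0.002). Its deposited NES was 2.60 in YUMM3.3-bearing against healthy spleen, with q and family-wise error rate listed as 0, and 18 genes lay within the first 405 of the ranked list. In the cell lines the set was higher in YUMM3.3 than in B16F10 cells (1.60, q = 0.0420). It was not called between B16F10-bearing and YUMM3.3-bearing spleen, at 0.97 (q = 0.671). Cell division sets also rose with both tumours in spleen, and their part in these values was not tested. PINK_DN fell in B16F10-bearing against healthy marrow (-2.07, q = 0.00166), and RED_DN fell in YUMM3.3-bearing against healthy spleen (-1.83, q = 0.0230).

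Of the remaining steroid and lipid sets, 2 received a call each, both in YUMM3.3-bearing against healthy spleen. The HSP90 chaperone cycle for steroid hormone receptors, 51 genes that keep these receptors ready to bind hormone, rose (NES 1.68, q = 0.0215). REACTOME_PEROXISOMAL_LIPID_METABOLISM, 26 genes for the oxidation of very long and branched fatty acids, fell (-1.81, q = 0.0285). REACTOME_METABOLISM_OF_STEROIDS, which contains the Reactome cholesterol sets among others, was not called, and its largest NES in size was -1.66 in B16F10-bearing against YUMM3.3-bearing spleen (q = 0.105). Its peak in the 3 spleen comparisons fell at the same gene as that of the Reactome SREBP sets. The dolichol oligosaccharide set, whose lipid carrier is made by a branch of the mevalonate pathway, came near a call in the deposited table at 1.57 in B16F10-bearing against healthy marrow (q = 0.0504). The PPAR-alpha set and the steroid hormone sets were called nowhere.

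Neighbouring pathways were counted from sets picked by name, with earlier results of these data known. Sets of eicosanoids, signalling lipids made from arachidonic acid, numbered 6. Of these, 1 rose and 3 fell in YUMM3.3-bearing against healthy spleen, with backgrounds of 15.6% and 5.31%. KEGG_ARACHIDONIC_ACID_METABOLISM was at -2.03 (q = 0.00573) and its Reactome counterpart at -1.99 (q = 0.00725) there. The Reactome set was higher in B16F10-bearing than in YUMM3.3-bearing spleen, at 1.78 (q = 0.0219). The list was mixed: CHEMNITZ_RESPONSE_TO_PROSTAGLANDIN_E2_UP, genes induced in human T cells by an eicosanoid, rose both in B16F10-bearing (2.40) and in YUMM3.3-bearing (2.95) against healthy spleen, with q listed as 0 in each.

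Of 41 sets for adipogenesis, PPAR and lipoproteins, most of them adipogenesis sets, 12 rose and 0 fell in B16F10-bearing against healthy spleen at the deposited q, with 1 below 0 at a nominal p under 0.05 and a background of 16.6% higher. With the YUMM3.3 tumour 4 rose and 4 fell against healthy spleen, with backgrounds of 15.6% and 5.31%. Between B16F10-bearing and YUMM3.3-bearing spleen 13 were higher and 1 lower, with backgrounds of 9.63% and 1.47%. The members with the largest NES in spleen rose with both tumours: BURTON_ADIPOGENESIS_3 was at 2.78 in B16F10-bearing and 3.33 in YUMM3.3-bearing against healthy spleen, with q listed as 0 in each. Unlike it, WANG_CLASSIC_ADIPOGENIC_TARGETS_OF_PPARG, 26 targets of the adipocyte regulator PPAR-gamma, rose in B16F10-bearing (1.91, q = 0.00202) and fell in YUMM3.3-bearing (-2.05, q = 0.00501) against healthy spleen. It was higher in B16F10-bearing than in YUMM3.3-bearing spleen, at 2.19 (q = 3.47e-05). Of 9 sets for mTOR, a kinase whose pathway promotes SREBP processing, 0 were called at the deposited q in any spleen comparison and 0 had a nominal p below 0.05, with medians of 0.80, -0.95 and 0.91 in the order above. Of the mTOR sets, 1 rose and 4 fell in YUMM3.3-bearing against healthy marrow, with backgrounds of 9.68% and 6.52%. In B16F10-bearing against YUMM3.3-bearing marrow 4 were higher, with a background of 8.09%. Of 5 oxidation and peroxisome sets, 0 were called in any comparison at the deposited q, and 1 had a nominal p below 0.05, in YUMM3.3-bearing against healthy spleen.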

How the data were processed

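Samples were grouped by their labels for tissue, disease and cell type. Per the submitters' processing notes, FastQC 0.11.8, STAR 2.7.1a, featureCounts 1.6.0, DESeq2 1.22.2 and the mm10 build were used; the enrichment software version, ranking metric, permutation scheme and gene set release are not given in the sources used here. Per the file headers, the authors deposited 14 reports, for 7 comparisons in both directions, holding scores (ES, NES), p-values (nominal p, FDR q, FWER p), set size, rank at the maximum and leading edge. Each myeloid report was read as sets higher in its first-named group and the cell line reports by their up and down labels, and NES was signed to match. A reversal of a whole tissue by the submitters could not be detected from these files. Depth is unknown here.

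Sets were selected by name, counted at q below 0.05 and set beside all listed sets (pandas 2.3.3, Python 3.11.15). The counting was tested on simulated sets. All sterol and SREBP sets were named. In other groups, sets called at least once were named, and the set called nowhere whose NES was largest in size. Leading edge genes are the deposited percentage times set size, rounded. In the name-based lists, 4 T cell and 1 erythroid name were left out because their letters matched another word. Members and lists were chosen with earlier results of these data known. Alternatives changed the q threshold, the family-wise p, set size, _DN names and source collection.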

Additional observations from a re-analysis of the deposited data

Results flagged for a closer look

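In 9 cases a lipid set differed in the direct comparison of B16F10-bearing with YUMM3.3-bearing cells at a deposited q below 0.05. The direct comparisons hold no healthy libraries, so they do not measure a response against healthy mice. In spleen, NES between the tumours was -2.51 for the Reactome set of SREBP regulation of cholesterol synthesis, -2.50 for SREBP-activated expression, -2.13 for cholesterol biosynthesis and -2.03 for the SREBP targets from liver. It was 1.69 for the MAGENTA_UP module of the oxidised phospholipid response in spleen. In bone marrow it was 1.91 for phospholipid metabolism, 1.89 for CYAN_UP, 1.85 for YELLOW_UP and 1.80 for ABC transporters in lipid homeostasis. These values rest on 2 libraries a group in spleen, and on 3 B16F10-bearing and 2 YUMM3.3-bearing libraries in marrow.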

How the results depend on the processing

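No paired analysis was possible because the deposited tables hold no values per library; for the same reason no library could be left out. The called lipid sets numbered 2, 6 and 4 in bone marrow (B16F10-bearing against healthy, YUMM3.3-bearing against healthy, B16F10-bearing against YUMM3.3-bearing), 5, 9 and 5 in the same order in spleen, and 1 in the cell lines. At q below 0.25 they were 17, 19, 18, 10, 18, 12 and 8. At q below 0.01 they were 1, 0, 1, 3, 2, 4 and 0. At a family-wise p below 0.05 they were 0, 0, 0, 2, 0, 3 and 0. With sets of 25 to 200 genes alone, which drops the 20-gene and 22-gene sterol sets, they were 2, 3, 1, 3, 7, 2 and 1. With KEGG and Reactome sets alone they were 0, 3, 2, 2, 8, 3 and 1. With _DN names kept in they were 3, 6, 4, 6, 11, 5 and 2. Without the oxidised phospholipid sets, an alternative chosen after seeing the data, they were 1, 4, 2, 3, 8, 4 and 1. The lower counts follow from fewer sets or a stricter threshold. The 4 SREBP and cholesterol synthesis sets lower in B16F10-bearing than in YUMM3.3-bearing spleen all passed q below 0.01. The median NES of the lipid sets kept its sign in 28 of 28 recounts over other choices of sets. These recounts share most of their sets with the main count and are a weak check.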
